A study of Rattus norvegicus with 36 samples.

Results

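The genes described here handle iron: Slc40a1, Slc11a1, Slc11a2, Tfrc, Ftl1, Fth1, Hamp, Hpx, Steap4, and Slc39a14. They were taken as every probe, other than array controls, whose gene name is one of these 10 symbols. This gave 10 of the 25597 gene names and 15 of the 45598 probes on the array. RNA came from the accessory lung lobe of female Sprague Dawley rats, 13 weeks old when they were instilled through the trachea with saline (vehicle) or with DQ-12, a crystalline silica, at 10 mg per rat. Lungs were taken on day 1 (D1), day 30 (D30), and day 180 (D180), with 6 rats in each of the 6 groups and 1 single-color Agilent array per rat. The vehicle rats of each time point were the controls of that time point, and the groups shared no rats. Because DQ-12 was given as a single dose by instillation, the series holds no dose series. All values are log2 signals, quantile normalized, where 1 unit is a doubling, and they compare groups for the same probe only. A gene was called at an adjusted p under 0.05 (limma, Benjamini–Hochberg adjustment over 23940 genes), and was a DEG if its fold change (FC) was also at least 2.

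Iron enters cells mainly bound to transferrin, which is taken up by the transferrin receptor (Tfrc). Inside the endosome it is reduced by a STEAP reductase and moved into the cytosol by the divalent metal transporter (Slc11a2), is stored in ferritin, a shell of light (Ftl1) and heavy (Fth1) chains, and leaves through ferroportin (Slc40a1). Hepcidin (Hamp), a peptide hormone made mostly by the liver, causes ferroportin to be degraded. In the lung, alveolar macrophages take up iron and hold it in ferritin, and Slc11a1 (Nramp1) moves metal ions out of their phagosomes. Hemopexin (Hpx) is a plasma protein that binds free heme.

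All 10 genes passed the filter on dim probes and were tested. DQ-12 rats had 2 of them called at D1 (Tfrc and Hpx), the same 2 at D30, and 5 at D180 (Hpx, Slc11a1, Slc11a2, Steap4, and Ftl1). Each of these calls was higher in DQ-12 rats, and 0 were lower. Among all genes tested, the share called was 16.2% (D1), 3.98% (D30), and 16.8% (D180), of which 7.58, 2.74, and 7.82% were higher and 8.62, 1.24, and 9% lower. The 10 genes had a median log2 FC of 0.21, 0.24, and 0.33 at the 3 times, beside −0.01, −0.02, and −0.03 over all genes. Hpx was a DEG at D30 and D180 and Slc11a1 at D180, where 1.05% and 3.63% of all genes were DEGs (0.915% and 2.86% higher). At D1, 0 of the 10 were DEGs, beside 3.07% of all genes (2.02% higher). The DQ-12 rats all lay above the vehicle rats for 1 gene at D1, 2 at D30, and 4 at D180, beside 11.2, 2.36, and 7.26% of all genes whose groups did not overlap in either direction. Slc40a1, Hamp, Slc39a14, and Fth1 were not called at any time point.

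**Figure D1:**
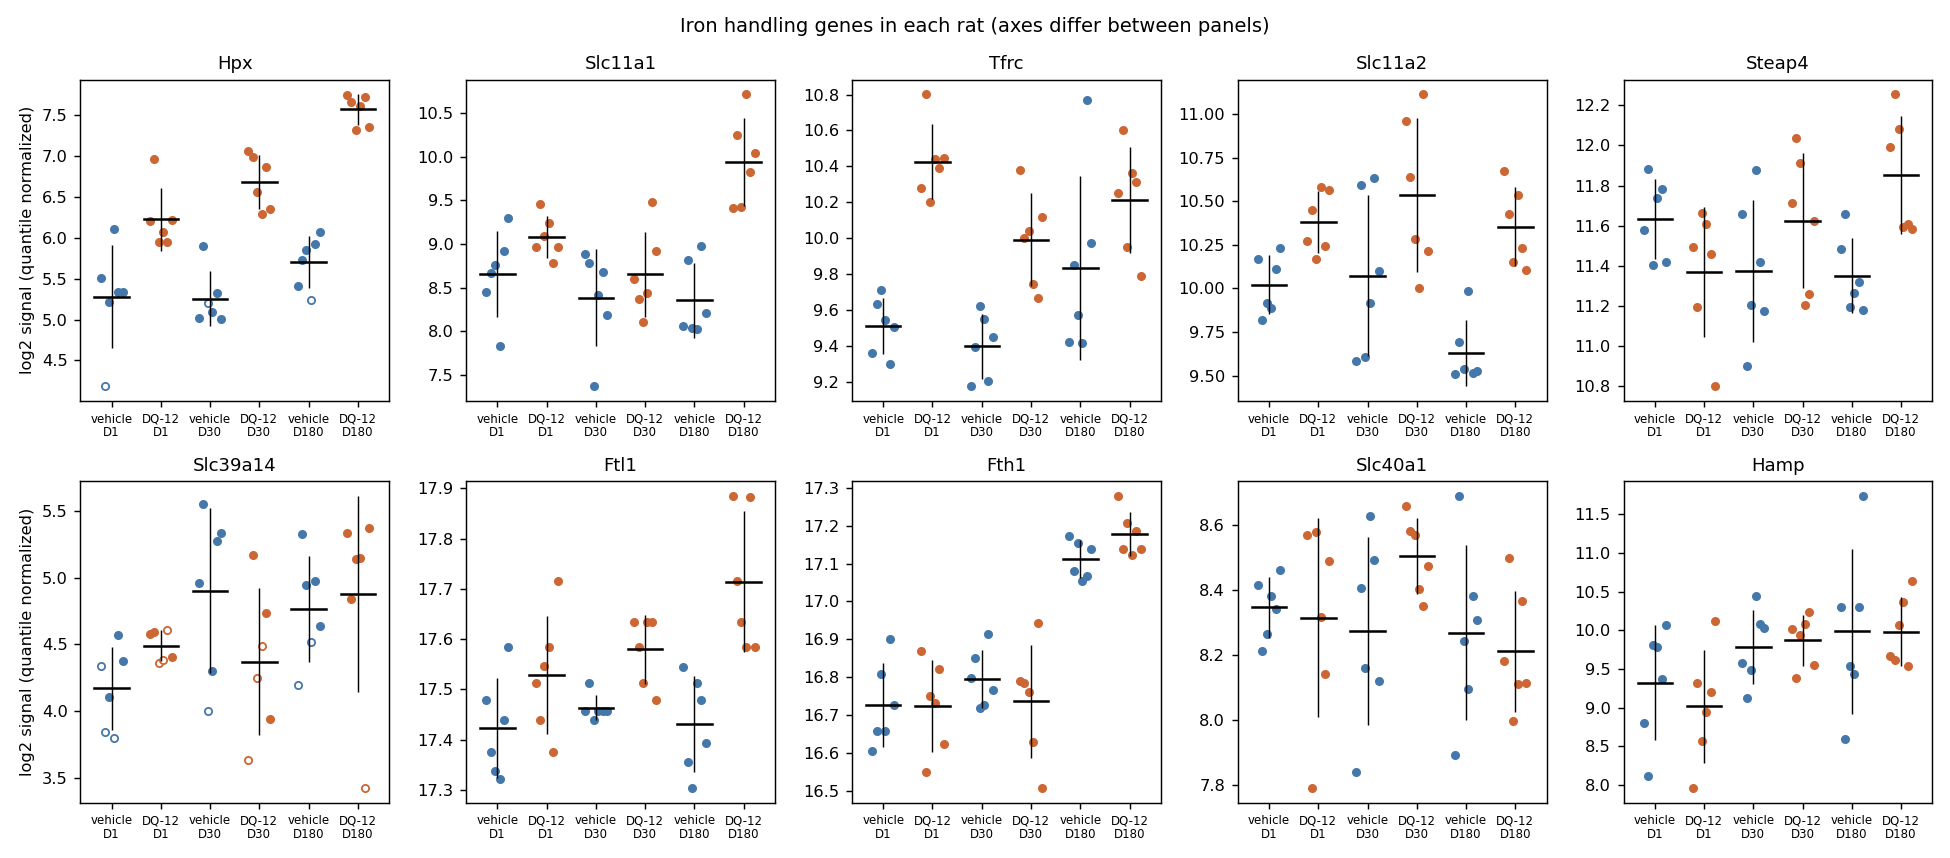
Log2 signal (quantile normalized) of the 10 iron handling genes in each of the 36 rats, by group, with each panel on its own axis. Blue points are vehicle rats and orange points DQ-12 rats, open points were not well above background, and horizontal bars and vertical lines give the mean and SD of 6 rats. For Hpx and Slc11a1 all 6 DQ-12 rats at D180 lie above all 6 vehicle rats, whereas the groups of Hamp and Slc40a1 overlap at each time point.

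The study used 19 slides and 11 scan dates, and between 51.4 and 75.5% of the probes were well above background. Groups and scan dates were not balanced. At D1, 1 vehicle array shared a scan date with the 6 DQ-12 arrays, and the other 5 vehicle arrays were scanned on other dates. At D30, 1 scan date held 4 vehicle arrays and 1 DQ-12 array and the other 2 and 5. At D180, 1 date held 3 arrays of each group, another 1 of each, and the other 4 dates 1 array each. The 8 markers of lung epithelium were well above background on all 36 arrays, and of them 1 was called higher and 1 lower at D1, 2 higher at D30, and 3 higher and 2 lower at D180. Skeletal muscle markers stood high in single rats, with a summed signal of 17600 in vehicle rat 5 at D180 (832 to 1150 in the other vehicle rats) 10200 in DQ-12 rat 5 at D1 (809 to 1260), and 2630 in DQ-12 rat 6 at D30 (858 to 916). T cell markers had 0 calls at any time and B cell markers 1 each at D1 and D180, of 6 in each list.

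Hpx was the only gene of the 10 called at each time point. Its probe lies on chr1:163319663-163319722 of rn4, minus strand. At D1 the vehicle rats ran from 4.18 to 6.11 with a median of 5.34, and the DQ-12 rats from 5.94 to 6.97 with a median of 6.14. The groups overlapped, with 3 DQ-12 rats past the highest vehicle rat, and the log2 FC was 0.94 (SE 0.22, adjusted p = 0.00279). At D30 the vehicle rats ran from 5.00 to 5.90 (median 5.15) and the DQ-12 rats from 6.30 to 7.06 (median 6.71). At D180 the respective values ran from 5.24 to 6.07 (median 5.79) and from 7.32 to 7.74 (median 7.64). The groups no longer overlapped at either time point. It was higher in DQ-12 rats by 1.43 at D30 (SE 0.22, FC 2.69, adjusted p = 7.35e-05) and 1.87 at D180 (SE 0.22, FC 3.65, adjusted p = 1.60e-07). All 6 DQ-12 arrays were well above background at each time point and 5 of the 6 vehicle arrays.

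The Hpx rise was smaller with normexp background correction, which here also added an offset of 50 to each signal. With normexp the log2 FC was 0.37, 0.63, and 1.05 at D1, D30, and D180, still called at each. At D30 the FC was 1.55, and Hpx was no longer a DEG. The part of the offset in these smaller values was not tested. Within the scan date of 3 arrays per group at D180 the difference was 2.07, and within the D30 dates it was 1.56 and 1.5. With scan date as a fixed block, Hpx was not called at D1 (1.01, adjusted p = 0.339), a fit that compares the groups through 1 vehicle array, and with slide as a fixed block it was called neither at D1 (1.05, adjusted p = 0.357) nor at D180 (2.50, adjusted p = 0.0606).

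Hemopexin is best known as a product of the liver. At D180, 3 of 10 hepatocyte markers (Alb, Tat, and Fgb) were well above background on 0 of the 12 arrays, and the other 7 on at least 1 array. The summed signal of all 10 was 389 to 747 in DQ-12 rats at D180 and 487 to 1520 in vehicle rats. Of these 10 markers, 0 were called at D30 and 0 at D180, while at D1, 1 was higher and 1 lower. The part of hepatocyte RNA in the Hpx result was not tested. The promoter of Hpx is shown because the gene was called at each time. The 250 bases before its start, on the minus strand at chr1:169352156-169352405 of GRCr8 (RefSeq), hold 1 match to TGACNNNGC, the core of the antioxidant response element, read on the opposite strand and given in capitals.
Hpx promoter: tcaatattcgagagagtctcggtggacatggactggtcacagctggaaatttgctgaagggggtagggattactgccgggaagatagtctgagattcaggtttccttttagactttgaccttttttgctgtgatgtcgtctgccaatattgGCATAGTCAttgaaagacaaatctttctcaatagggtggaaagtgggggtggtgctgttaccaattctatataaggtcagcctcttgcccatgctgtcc
The match begins 99 bases before the start and reads GCATAGTCA. Of the 33469 rat promoter windows of 300 bases, 12.1% hold this motif on either strand. RefSeq windows were found for 6 of the 10 genes, 7 windows in all (none for Slc11a1, Ftl1, Fth1, and Slc39a14), and of these only that of Hpx held the match.

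Slc11a1, the metal transporter of phagosomes in macrophages and neutrophils, was a DEG at D180. Its probe spans 457 bases on chr9:73723371-73723827 of rn4, plus strand, while the probe itself has 60 bases, so that its ends lie on separate stretches of the genome.
Slc11a1 probe: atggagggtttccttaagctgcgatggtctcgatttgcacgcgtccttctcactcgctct
At D180 the vehicle rats ran from 8.03 to 8.97 with a median of 8.13, and the DQ-12 rats from 9.41 to 10.71 with a median of 9.93. Every DQ-12 rat lay above every vehicle rat. This gave a log2 FC of 1.59, an FC of 3.00 (SE 0.26, adjusted p = 3.26e-05). At D1 the vehicle rats ran from 7.84 to 9.29 (median 8.71) and the DQ-12 rats from 8.78 to 9.45 (median 9.03), with a log2 FC of 0.43 (adjusted p = 0.294). At D30 the ranges were 7.37 to 8.89 and 8.10 to 9.48, with a log2 FC of 0.27 (adjusted p = 0.731). The groups overlapped at both earlier times. Within the D180 scan date of 3 arrays per group the difference was 1.65. The call was lost with slide as a fixed block (1.39, adjusted p = 0.136), where a single slide held both groups at D180, with 1 array of each.

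The summed signals of phagocyte markers were also higher, at D30 as well as at D180, but not each marker rose. At D30, 6 of 10 macrophage and 7 of 10 neutrophil markers had a positive log2 FC (medians 0.10 and 0.15). At D180, 7 and 9 of them did (medians 0.53 and 0.83). Of 10 macrophage markers, 4 were called higher and 1 (Cd163) lower at D180, with a summed signal of 8540 to 12000 in vehicle rats and 17800 to 29100 in DQ-12 rats. At D30 the sums were 6650 to 7830 and 10400 to 14500, with 4 markers called higher. At D1 they were 7870 to 11300 and 8320 to 11100, with 2 markers called higher and 1 lower. Among all genes, 7.58, 2.74, and 7.82% were called higher at D1, D30, and D180. Of 10 neutrophil markers, 4 were called higher at D180 and 0 lower, with sums of 18700 to 25300 and 56100 to 77100. At D30, where Slc11a1 was not called, 2 neutrophil markers were called higher, with sums of 14900 to 30200 and 31100 to 70300 that did not overlap, and at D1 1 was, with sums of 22500 to 33700 and 23300 to 55600. Elane was well above background on 0 of the 36 arrays. Of the neutrophil markers S100a9 had the largest log2 FC, at D180 (2.57, adjusted p = 4.88e-09). Marco, a macrophage scavenger receptor, was at least 3.14-fold higher at D30 (adjusted p = 3.32e-06), with 0 vehicle arrays well above background. The part of these markers in the Slc11a1 result was not tested. In whole lung RNA, more cells of a type and more RNA per cell cannot be told apart. Over the 36 arrays, the genes most like Slc11a1 of 23733 compared were Vim (r = 0.895), Phyhd1 (0.894), and Atp6v0c (0.876), and those most like Hpx were Csf1 (0.900), Cd14 (0.899), and Slamf8 (0.891). These correlations run across all 6 groups and so hold the differences between groups.

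Among the uptake genes, Tfrc was called at D1 and D30. Its probe lies on chr11:69976628-69976687 of rn4, minus strand. At D1 the vehicle rats ran from 9.30 to 9.71 with a median of 9.53, and the DQ-12 rats from 10.20 to 10.80 with a median of 10.42. The groups did not overlap and differed by 0.92 on the log2 scale (SE 0.17, FC 1.89, adjusted p = 2.26e-04). At D30 the ranges were 9.18 to 9.62 (median 9.42) and 9.67 to 10.38 (median 10.02). Again every DQ-12 rat lay above every vehicle rat, and the difference was 0.59 (FC 1.51, adjusted p = 0.0389). At D180 the vehicle rats ran from 9.42 to 10.77 (median 9.71) and the DQ-12 rats from 9.79 to 10.60 (median 10.28), and the highest rat of all was a vehicle rat. The log2 FC was 0.38 and not called (adjusted p = 0.134).

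The calls of Tfrc were sensitive to batch and to single rats. At D1 it was not called with scan date or slide as a fixed block (0.71, adjusted p = 0.105, and 0.70, adjusted p = 0.0976), fits that rest on 1 vehicle array. At D30 the call was lost with either fixed block (0.43, adjusted p = 0.0964, and 0.45, adjusted p = 0.0768). It was also lost with scan date as a random block (0.50, adjusted p = 0.115) and in the fit of all probes (0.59, adjusted p = 0.0537). The same held without any 1 of vehicle rats 1, 2, 5, and 6 or DQ-12 rats 1, 2, 3, and 6 (log2 FC 0.52 to 0.60, adjusted p = 0.0664 to 0.128). The highest vehicle rat at D180 was rat 5, whose muscle markers stood high. Its array was alone on its scan date and slide, as were those of vehicle rat 6 and DQ-12 rats 4 and 6. Without vehicle rat 5, Tfrc was called at D180 (0.56, adjusted p = 0.00464), and likewise with scan date as a fixed block (0.71, adjusted p = 7.18e-04). Whether muscle RNA or the scan date bears on the Tfrc value of that rat was not tested. Tfrc is also made in quantity by erythroid precursors. The 10 erythroid markers all had a negative log2 FC at each time point, and 3, 4, and 8 of them were called lower at D1, D30, and D180, with 0 called higher. The part of erythroid cells in the Tfrc result was not tested.

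Slc11a2 was called at D180 only. Its 2 probes have the same sequence, on chr7:139094505-139094564 of rn4, minus strand, and so are not separate evidence. At D180 the vehicle rats ran from 9.51 to 9.99 with a median of 9.53, and the DQ-12 rats from 10.10 to 10.67 with a median of 10.33. The groups did not overlap and were 0.73 apart (log2 FC, SE 0.18, FC 1.65, adjusted p = 0.00289). At D1 the vehicle rats ran from 9.82 to 10.23 (median 10.01) and the DQ-12 rats from 10.17 to 10.58 (median 10.36), and 5 DQ-12 rats exceeded the vehicle range (0.36, adjusted p = 0.170). At D30 both groups were spread widely, from 9.58 to 10.63 and from 10.00 to 11.11 (0.46, adjusted p = 0.148). With scan date as a fixed block the D30 difference was 0.74 (adjusted p = 0.0422) and with slide 0.63 (adjusted p = 0.0410), and within the 2 scan dates of D30 it was 0.89 and 0.66. At D180 the call was lost with slide as a fixed block (0.69, adjusted p = 0.360).

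Steap4, a ferric and cupric reductase that is also found in inflammatory cells and fat tissue, was called at D180 by 1 of the 2 probes that carry its name. The probe for its RefSeq transcript lies on chr4:22688668-22688727 of rn4 and the other, for an Ensembl transcript, on chr4:22665782-22665841, 22.9 kb away on the same minus strand. Whether the second probe, which the array files name Steap4, measures the same gene was not tested. At D180 the first ran from 11.18 to 11.66 (median 11.29) in vehicle rats and from 11.59 to 12.25 (median 11.80) in DQ-12 rats. Of the DQ-12 rats 3 exceeded the vehicle range. The difference was 0.50 on the log2 scale (FC 1.41, SE 0.17, adjusted p = 0.0344), and at D1 and D30 it was −0.27 (adjusted p = 0.309) and 0.25 (adjusted p = 0.515). The second probe had a log2 FC of 0.37, 0.35, and −0.06 at the 3 times, none called in the fit of all probes (adjusted p = 0.479, 0.719, and 0.946). With the median over both probes Steap4 was not called at D180 (0.22, adjusted p = 0.523). The call was also lost with scan date as a fixed block (0.58, adjusted p = 0.0595) or slide (0.72, adjusted p = 0.536), and without any 1 of vehicle rats 3 to 6 or DQ-12 rats 1 to 3 (0.42 to 0.49, adjusted p = 0.0556 to 0.108).

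**Figure D2:**
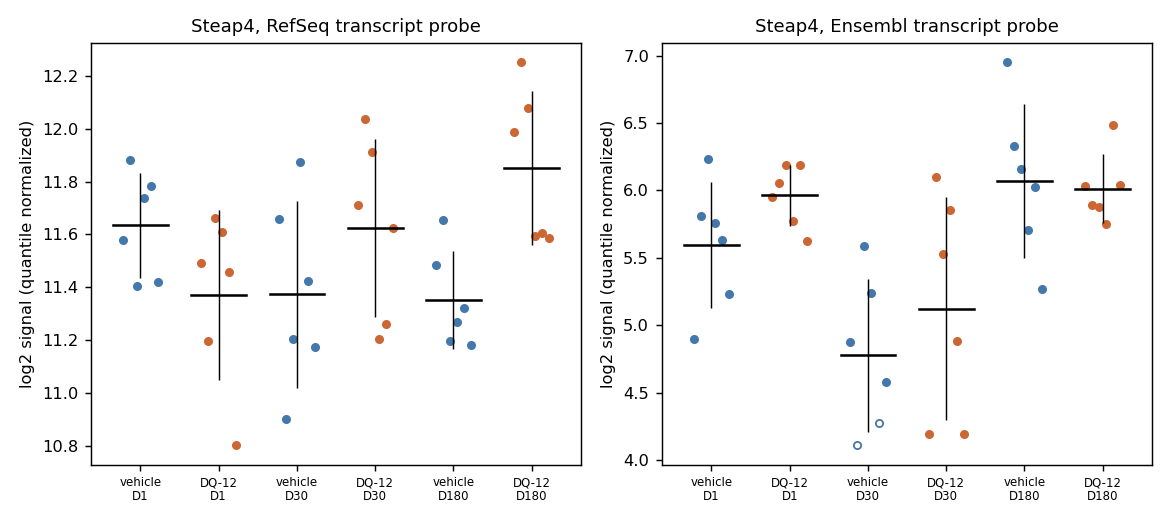
Log2 signal (quantile normalized) of the probes for the RefSeq and the Ensembl transcript of Steap4 in each rat, by group, with separate axes. Points, bars, and lines are as in the plot of the 10 genes, with blue for vehicle and orange for DQ-12. At D180 the first probe has 3 DQ-12 rats above the vehicle range, whereas the second has 0.

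The start of Steap4 is shown with that of Hamp because these are the 2 of the 6 genes with a RefSeq window that hold TTCNNNGAA, the core of the site that STAT proteins bind. The motif reads the same on both strands and is given in capitals. Of all 33469 windows of 300 bases, 8.87% hold it. The stretches are the 250 bases before the start, on the minus strand at chr4:27054770-27055019 for Steap4 and chr1:95300272-95300521 for Hamp (GRCr8).
Steap4 promoter: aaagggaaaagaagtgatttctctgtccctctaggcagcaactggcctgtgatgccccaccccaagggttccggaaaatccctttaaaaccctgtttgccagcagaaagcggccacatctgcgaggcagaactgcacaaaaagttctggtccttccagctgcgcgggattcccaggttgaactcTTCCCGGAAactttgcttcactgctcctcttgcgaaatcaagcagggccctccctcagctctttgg
Hamp promoter: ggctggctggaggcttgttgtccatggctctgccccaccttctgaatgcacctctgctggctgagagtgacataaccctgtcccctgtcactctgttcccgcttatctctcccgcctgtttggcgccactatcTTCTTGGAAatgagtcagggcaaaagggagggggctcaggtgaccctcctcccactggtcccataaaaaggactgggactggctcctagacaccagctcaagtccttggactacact
The match begins 66 bases before the start of Steap4 and 117 bases before that of Hamp.

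Slc39a14 (Zip14), a zinc and iron importer, was measured poorly. Its probe, on chr15:50703832-50703891 of rn4, was well above background on 3 of 6 vehicle and 3 of 6 DQ-12 arrays at D1, 5 and 3 at D30, and 4 and 5 at D180. The DQ-12 rats ran from 4.36 to 4.61 at D1, from 3.64 to 5.17 at D30, and from 3.42 to 5.37 at D180, and the vehicle rats from 3.8 to 4.57, from 4.00 to 5.55, and from 4.20 to 5.33. The groups overlapped at each time, and the log2 FCs of 0.32, −0.53, and 0.11 were not called (adjusted p = 0.5, 0.365, and 0.864). The direction at D1 was −0.03 with 75th percentile scaling. With array weights the D30 value was called lower (−0.72, adjusted p = 0.0408).

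Of the ferritin chains, Ftl1 was called at D180, with a small FC. Its 2 probes overlap on chr1, at 95929253 to 95929312 and 95929246 to 95929305 of rn4. By the first, the vehicle rats ran from 17.30 to 17.55 with a median of 17.44 at D180, and the DQ-12 rats from 17.58 to 17.89 with a median of 17.68. The groups did not overlap, with an FC of 1.22 (0.28 ± 0.07 SE on the log2 scale, adjusted p = 0.00328). The second probe gave 0.19 (adjusted p = 0.0335 in the fit of all probes), and there the groups overlapped, with the highest vehicle rat at the same 17.64 as the highest DQ-12 rats. At D1 and D30 the log2 FC of the first probe was 0.11 and 0.12 (adjusted p = 0.328 and 0.443). Ftl1 was among the brightest probes, where quantile normalization leaves few distinct values, and 4 vehicle rats at D30 shared the value 17.46. Under 75th percentile scaling the D180 difference was 0.46 (adjusted p = 0.0327). The call was lost with D180 fitted alone (adjusted p = 0.0803) and with slide as a fixed block (0.37, adjusted p = 0.234).

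Fth1 was not called by either probe. With the probe used, on chr1:212432648-212432709 of rn4, the vehicle rats ran from 16.61 to 16.90 at D1, 16.72 to 16.92 at D30, and 17.05 to 17.17 at D180, and the DQ-12 rats from 16.55 to 16.87, 16.51 to 16.94, and 17.12 to 17.28. The groups overlapped at each time. The log2 FC was −0.00 at D1 (95% interval −0.14 to 0.14), −0.06 at D30 (−0.20 to 0.08), and 0.07 at D180 (−0.08 to 0.21), with adjusted p = 0.992, 0.790, and 0.602. The vehicle level itself was higher at D180 than at D1, by 0.39 (adjusted p = 5.70e-04), and than at D30, by 0.32 (adjusted p = 0.00333). With 75th percentile scaling these differences were 0.32 (adjusted p = 0.138) and 0.41 (adjusted p = 0.0526). No vehicle level of another of the 10 genes was called as differing between time points, beside 6.53, 11.5, and 10.6% of all genes for D30 against D1, D180 against D30, and D180 against D1. Time points were scanned on different dates, and the scan date and the time point cannot be told apart.

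Slc40a1, the only known exporter of iron, kept overlapping groups at each time. Its probe on chr9:44978571-44978630 of rn4 ran from 8.21 to 8.46 in vehicle rats and 7.79 to 8.58 in DQ-12 rats at D1, from 7.84 to 8.63 and 8.35 to 8.66 at D30, and from 7.89 to 8.69 and 8.0 to 8.5 at D180. The log2 FC was −0.03 (95% interval −0.30 to 0.24), 0.23 (−0.04 to 0.50), and −0.06 (−0.33 to 0.21), with adjusted p = 0.913, 0.421, and 0.847. A second probe on chr9:44977923-44977982 gave 0.04, −0.12, and −0.24, none called (adjusted p = 0.921, 0.864, and 0.376 in the fit of all probes). The probes differ in sign at D1 and D30.

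Hamp varied widely between rats of a group, with an SD of 0.74, 0.48, and 1.07 in the 3 vehicle groups. All 36 arrays had Hamp well above background. The vehicle rats ran from 8.11 to 10.07 with a median of 9.57 at D1 and from 8.59 to 11.74 with a median of 9.92 at D180, and the DQ-12 rats from 7.96 to 10.12 (median 9.07) and from 9.53 to 10.63 (median 9.87). At D30 the ranges were 9.13 to 10.44 and 9.38 to 10.23. The groups overlapped throughout. The log2 FC was −0.30 at D1 (95% interval −1.08 to 0.47), 0.08 at D30 (−0.70 to 0.86), and −0.00 at D180 (−0.78 to 0.77), with adjusted p = 0.654, 0.975, and 0.997. An FC of 1.5 in either direction lies inside the intervals of D30 and D180.

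**Figure D3:**
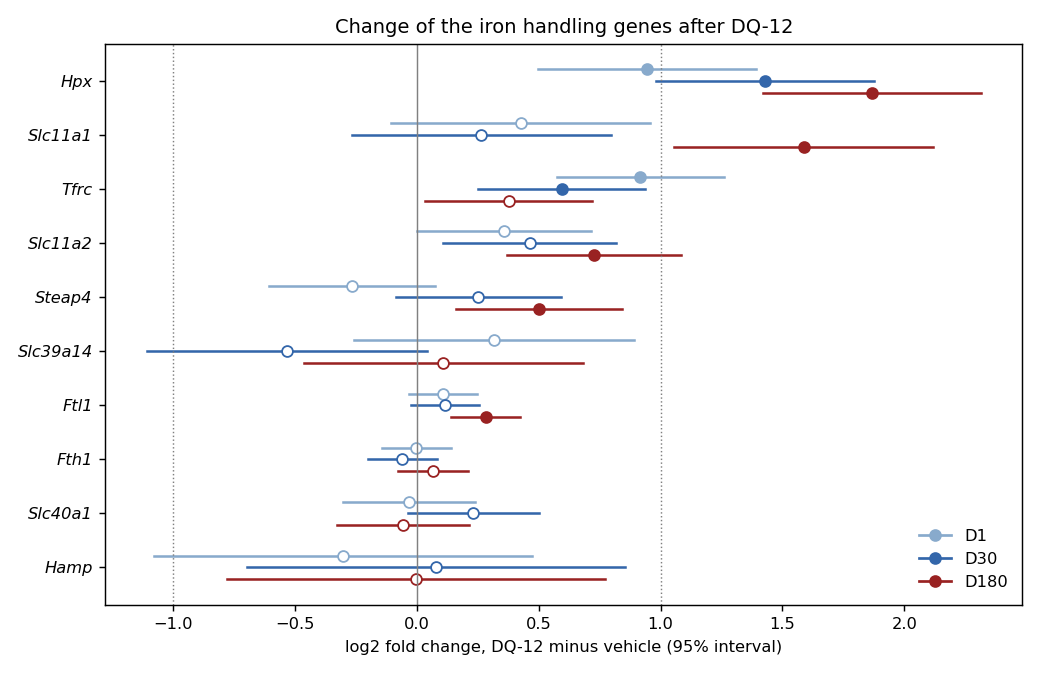
Log2 FC of DQ-12 against vehicle for the 10 iron handling genes at D1, D30, and D180, with 95% intervals from limma (6 rats per group). Filled points were called at an adjusted p under 0.05, open points were not, and dotted lines mark a 2-fold change. Hpx is the only gene called at all 3 times, and only Hpx and Slc11a1 have DEG calls.

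An interaction term tested, for each gene, whether the effect of DQ-12 differed between times. Called were 0 of the 10 genes for D30 against D1, 0 for D180 against D30, and 0 for D180 against D1, beside 2.18, 0.246, and 4.55% of all genes (limma). At an unadjusted p under 0.05 there were 2 (Slc39a14 and Steap4), 1 (Slc11a1), and 4 (Hpx, Slc11a1, Steap4, and Tfrc). The nearest to a call were Steap4 (D180 minus D1, 0.77, SE 0.24, adjusted p = 0.0555), Slc11a1 (1.16, SE 0.37, adjusted p = 0.0633), and Hpx (0.92, SE 0.31, adjusted p = 0.0829). For Slc11a1, D180 minus D30 was 1.32 (SE 0.37, adjusted p = 0.112). It was called without vehicle rat 3 or DQ-12 rat 5 of D30 (1.53 and 1.49, adjusted p = 0.0308 and 0.0407). For D180 minus D1, Hpx was called without vehicle or DQ-12 rat 2 of D1 (1.14 and 1.07, adjusted p = 0.0123 and 0.0374), Slc11a1 without any 1 of 4 rats (vehicle rat 4 of D1, vehicle rat 5 or DQ-12 rats 1 and 3 of D180, 1.27 to 1.33), and Steap4 without any 1 of 5 (vehicle rat 3 or DQ-12 rat 3 of D1, vehicle rat 2 or DQ-12 rats 5 and 6 of D180, 0.81 to 0.83). The sign of the Tfrc difference was opposite, with D180 minus D1 at −0.54 (adjusted p = 0.205).

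Of 72 other genes of iron and heme handling that were tested, 9 were called higher and 6 lower at D1, 5 and 2 at D30, and 7 and 14 at D180. Their median log2 FC was 0.01, 0.03, and 0.04. As shares of the list the calls came to 20.8, 9.72, and 29.2%, beside 16.2, 3.98, and 16.8% of all genes. At D1, 0 were called with scan date as a fixed block and 0 with slide, beside 1.12 and 1.45% of all genes. With 1 rat left out, the count at D30 reached 11 (without DQ-12 rat 5), a fit that called 7.43% of all genes.

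Uptake and carrier genes held most of the DEGs of this list. Tf, which encodes transferrin, ran from 10.35 to 11.51 in vehicle rats at D180 and from 11.63 to 12.29 in DQ-12 rats, without overlap (log2 FC 1.17, SE 0.18, adjusted p = 9.67e-06), and had a log2 FC of 0.75 at D30 (adjusted p = 0.00982). Lcn2, whose product lipocalin 2 binds the iron carriers of bacteria, had a log2 FC of 4.61 at D1 (SE 1.27, adjusted p = 0.0108) and 4.69 at D180 (adjusted p = 0.00802). Its rats were spread widely, from 7.47 to 12.75 in vehicle and 10.71 to 15.92 in DQ-12 at D1, and the groups overlapped at both times. At D30 Lcn2 was not called (1.74, adjusted p = 0.577). Steap1 and Steap3, of the same family as Steap4, were DEGs at D1 (1.60 and 1.18, adjusted p = 2.56e-05 and 0.0124), with 3 and 2 vehicle arrays well above background. At D180 Steap3 was well above background on 0 vehicle arrays and 5 DQ-12 arrays, and was at least 2.05-fold higher. That bound sets the mean of the DQ-12 rats against the higher, on each vehicle array, of its own signal and the lowest signal well above background. Cybrd1, a ferric reductase, was called at D30 (0.54, adjusted p = 0.0103), and Steap2 and Heph, a ferroxidase, were lower at D180 (−0.59 and −0.68, adjusted p = 2.33e-04 and 0.00209).

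Of 8 other genes that bind or move hemoglobin and heme, 1 was called higher at each time (Slc46a1 at D1, Hp at D30 and D180), and 2 were lower at D180. At D1 Hp was not called (log2 FC 0.17, adjusted p = 0.519). Hp, which encodes haptoglobin, the scavenger of free hemoglobin, ran from 11.60 to 12.24 in vehicle rats and 12.72 to 13.42 in DQ-12 rats at D30 (log2 FC 1.05, adjusted p = 6.09e-05), and from 11.75 to 12.40 and 12.97 to 14.11 at D180 (1.5, adjusted p = 2.45e-08), without overlap at either time. Hmox1, the heme-degrading enzyme heme oxygenase 1, was called at each time, with a log2 FC of 0.74 at D1 (adjusted p = 0.00525), 1.00 at D30 (adjusted p = 8.34e-04), and 1.55 at D180 (SE 0.19, adjusted p = 2.05e-07). The other 3 genes of heme breakdown were not called at any time. Cd163, the receptor on macrophages for haptoglobin bound to hemoglobin, was lower at D180, from 6.66 ± 0.41 to 5.77 ± 0.29 (SD, n = 6, log2 FC −0.89, adjusted p = 0.00191), while Cd68, another macrophage marker, was higher (1.55, adjusted p = 2.28e-09). Lrp1, Slc48a1, Flvcr2, and Abcg2 were not called at any time. Slc46a1, a heme and folate transporter, was called higher at D1 (0.75, adjusted p = 0.00706) and Pgrmc1, a heme-binding protein, lower at D180 (−0.40, adjusted p = 0.00301).

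In heme synthesis, Alas2, the erythroid form of its first enzyme, was lower at D1, D30, and D180 (−0.61, −0.76, and −0.69, adjusted p = 0.0421, 0.0307, and 0.0187). Alas2 is also 1 of the 10 erythroid markers. Cpox was a DEG at D1 (−1.02, SE 0.21, adjusted p = 7.83e-04), where the DQ-12 rats ran from 6.09 to 8.0 and the vehicle rats from 8.23 to 8.66. Of 14 storage and mitochondrial genes, 3 were higher and 2 lower at D1, and 1 was higher at D30 and at D180. The lower were Ncoa4, the receptor that delivers ferritin for breakdown, and Slc25a37, the mitochondrial iron importer (−0.60 and −0.79, adjusted p = 5.62e-06 and 0.00999). Sfxn1 was higher at each time, most at D180 (0.60, adjusted p = 1.88e-05).

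Of 18 genes that control hepcidin or belong to the signaling that does so, 8 were called lower at D180, beside 9% of all genes. These were Bmp2, Bmpr1a, Bmpr2, Acvr1, Smad6, Smad7, Id1, and Neo1. Their log2 FCs ran from −0.75 for Bmp2 (adjusted p = 0.0337) to −0.36 for Bmpr1a (adjusted p = 0.00183). Il6 was called higher but was not well above background on any D180 array, so no FC is given. At D1, 1 of the 18 was higher and 2 were lower, and at D30, 1 was lower. Bmp6 was lower at D1 and D30 (−0.54 and −0.79, adjusted p = 0.0421 and 0.00900) and Id1 at D1 (−0.62, adjusted p = 0.0107). Markers of endothelium, a cell type that also carries this pathway, moved the same way. All 6 were called lower at D180, with a summed signal of 125000 to 142000 in vehicle rats and 70000 to 115000 in DQ-12 rats. The part of this in the 8 lower genes was not tested. Of 5 iron sensing genes, only Epas1 was called, at D180 (−0.37, adjusted p = 0.00553).

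**Figure D4:**
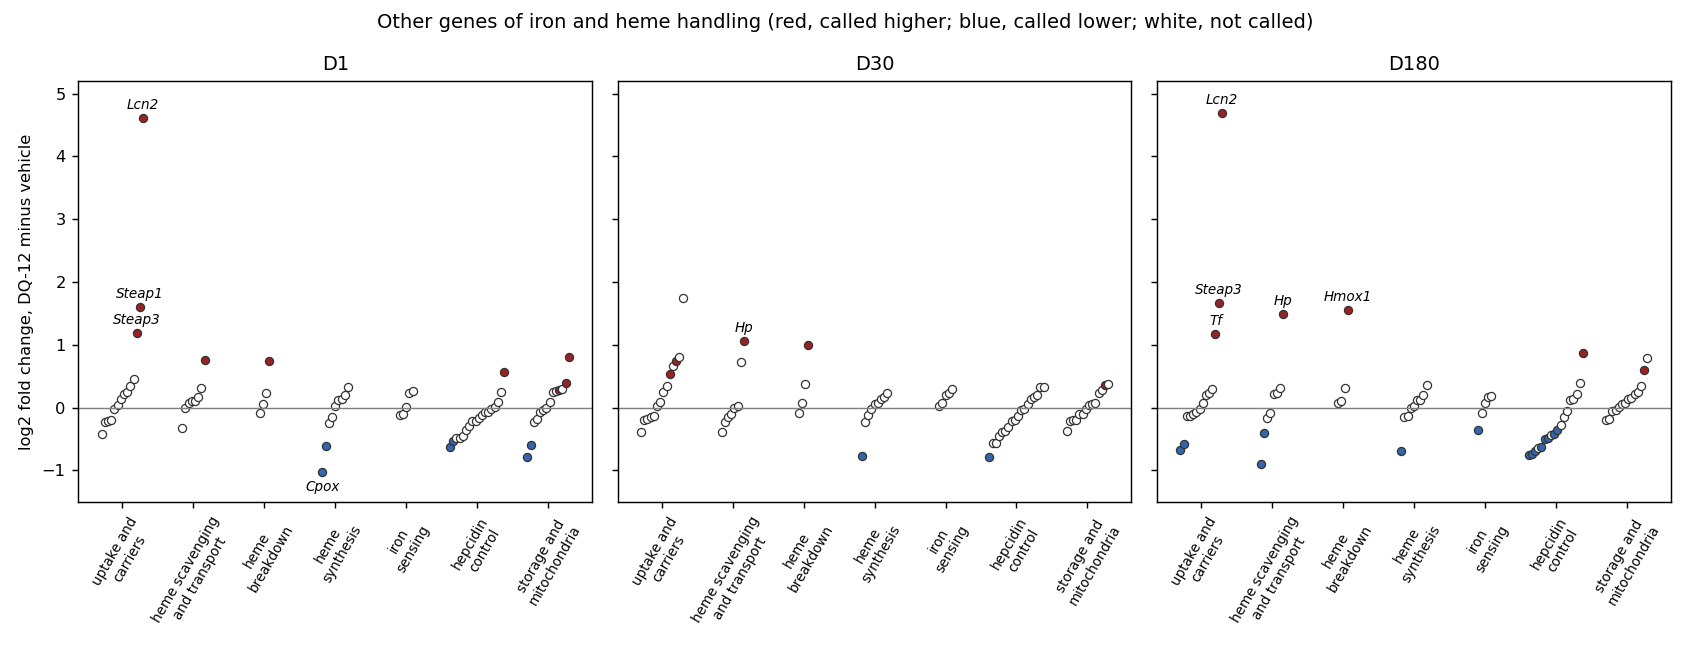
Log2 FC of DQ-12 against vehicle for the 72 other genes of iron and heme handling at D1, D30, and D180, by role, with each point a gene (6 rats per group). Red points were called higher, blue lower, and white not called, and DEGs are named, with Steap3 at D180 plotted at its fitted value although its FC is a bound. The 14 genes called lower at D180 include 8 of hepcidin control, and the red point of that group is Il6, which was not well above background.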

How the data were processed

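Lung RNA of 36 rats was hybridized to single-color Agilent arrays, which the authors read with Agilent Feature Extraction 12.0.1.1, as the submitters' processing notes name it. The deposited array files hold the intensity of each spot before and after background correction. The deposited log2 values equal, within a median of 0.00177 over 1641055 values, the log2 corrected intensity after 75th percentile scaling and centering of each probe.

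Here the log2 corrected intensity was used. Outlier spots (232 to 596 per array) were left out, spots of a probe averaged, and probes kept above the 95th percentile of 308 negative controls on at least 6 arrays, then quantile normalized. For each gene the brightest probe on average was used. Of 23940 genes, each was tested in limma 3.58.1 (R 4.3.3, with statmod 1.5.0) with 6 group means over 36 arrays, 2-sided, with Benjamini–Hochberg adjustment within each comparison. All probes were also fitted together. The batch variable of the study is not named, so scan date and slide entered as alternatives. The arrays are labeled as separate rats, and their number limits the precision. An exact permutation test over the 924 splits of 12 arrays gave p = 0.00216, its smallest value, wherever groups did not overlap.

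The text names the 10 genes with all their probes, the DEGs of the pathway list, the 3 genes most like each member that was a DEG, and leading cell type markers. Other genes (called genes of the pathway list, Cd68) were named after their values were seen. The members and lists were chosen with earlier results of these data known. The model was also tested on simulated data, with means and spreads taken from these arrays and no differences between scan dates or slides. Sequences are from the array files and the RefSeq promoter table of GRCr8, read in Python 3.11.15, and figures were drawn with numpy 2.4.6 and matplotlib 3.10.9. Probe coordinates are those of the array files (rn4). An annotation of that build was not used here. Some items are not reported here.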

Additional observations from a re-analysis of the deposited data

Results flagged for a closer look

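In 60 groups of 6 rats, a single rat stood far from the other 5 in 4, and chance alone marks about 1 in 20 groups. Slc39a14 was 3.42 in DQ-12 rat 5 at D180, with the nearest rat at 4.84. Hpx was 6.97 in DQ-12 rat 2 at D1 and 5.90 in vehicle rat 2 at D30, each above the rest of its group. Ftl1 was 17.51 in the same vehicle rat 2 at D30, above a group that otherwise lay between 17.44 and 17.46. No call of Hpx or Ftl1 at D1, D30, or D180 changed when any 1 rat was left out.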

How the results depend on the processing

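Of the iron handling genes, 2, 2, and 5 were called at D1, D30, and D180, and these counts became 0 at D1 with scan date or slide as a fixed block, 1 at D30 with the replicate block, and 0 at D180 with slide as a fixed block, and rose to 3 at D1 with D1 alone, 3 at D30 with slide as a random block or array weights, and 6 at D180 with scan date as a random block or array weights. Over all genes, the share called in the same fits at D1 was 1.12 and 1.45% (fixed blocks of scan date and slide) and 16.5% (D1 alone). At D30 it was 4.31% (replicate block), 4.04% (slide as a random block), and 14.4% (array weights). At D180 it was 2.51% (slide as a fixed block), 18.9% (scan date as a random block), and 17.3% (array weights). Leaving out 1 rat gave 2 to 2, 1 to 2, and 4 to 5 of the iron handling genes. For the pathway list the D1 count of 15 became 0 with either fixed block, 8 and 9 with them as random blocks, and 24 with array weights. At D30, 7 were called, and 3 with scan date as a fixed block, 2 with D30 alone, and 20 with array weights, and at D180, 21, and 5 with slide as a fixed block. For D1 the share of all genes was 7.1 and 10.7% with scan date and slide as random blocks and 23.5% with array weights. For D30 it was 1.9% with scan date as a fixed block and 2.01% with D30 alone. Leaving out 1 rat gave 12 to 16, 5 to 11, and 17 to 22 of the list. The interaction count of 0 for D180 against D30 became 1 with array weights (0 to 1 with a rat left out), and that for D180 against D1 became 3 with normexp, the filter on arrays well above background, or array weights, 2 with the replicate block, and 1 with 75th percentile scaling or the authors' log2 values (0 to 1). Calls of vehicle levels across time, 2, became 4 with normexp or array weights, 0 with 75th percentile scaling or the authors' log2 values, and 2 to 3 with a rat left out. The cause of these changes was not tested, except that fixed blocks at D1, and slide at D180, compare the groups through 1 vehicle array or 1 array of each group.

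Over all settings, 1756 values for single iron handling genes kept their side of the threshold (85 of these changed sign, called in neither fit). Among the values for the iron handling genes, 31 lost a call, 37 gained one, and no called value changed sign. The median log2 FC of all genes moved by less than 0.1 under each scaling. Replicate numbers did not pair the rats (correlation of deviations −0.131 to 0.218). With the replicate block, Tfrc at D30 had an adjusted p = 0.051, and calls of Steap4 and Slc11a1 were gained for D180 against D1. Dim probes (Slc39a14, Steap1, Steap3) limit what the arrays can show.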
